A study of Mus musculus with 12 samples.

Results

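The cytosolic ribosomal protein genes are the genes for the protein parts of the ribosome that works outside mitochondria. They were chosen by name and biotype: every protein-coding row of the deposited expression table whose symbol begins Rpl or Rps and continues as a standard ribosomal protein number, with Rplp0, Rplp1, Rplp2 and Rpsa added. This gave 83 genes of 56941 rows, of which 51 encode large subunit and 32 small subunit proteins or close copies of them. Fau, Rack1 and Rpl36al carry other names and fell outside the rule. RNA came from hippocampal cells of adult naive male mice, collected by flow cytometry for ACSA-2, an astrocyte surface antigen, and was amplified and sequenced with the SMART-Seq V4 kit. Control mice (Ctrl) were Tnfrsf1bfl/fl, and the others (cKO) were GfapcreERT2:Tnfrsf1bfl/fl. Both groups carried the floxed Tnfrsf1b gene, which encodes the tumour necrosis factor receptor TNFR2, and only cKO carried the inducible Cre driven by the Gfap promoter. Each genotype had 3 units, named by an A number in the titles (A1, A2 and A8 for Ctrl, A4, A9 and A10 for cKO), and each unit had libraries S1 and S2. The labels define neither the A nor the S number, so the p-values measure only the spread between these units, which may be technical.

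A ribosome joins a small subunit, which reads the messenger RNA, to a large subunit, which forms the peptide bond and guides the new protein into its exit tunnel. Each ribosomal protein is used in equal copy number apart from the stalk proteins, and their messengers belong to the most abundant of most cell types. Many of them begin with a cytosine followed by a run of pyrimidines, the 5′ terminal oligopyrimidine tract through which mTORC1 and LARP1 control their translation, and unused ribosomal proteins bind Mdm2 and so act on p53. Extra copies such as Rpl3l, Rpl10l and Rpl39l are known mainly from muscle or testis.

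Depth recovered from the steps of the deposited values was 17311872 to 35323322 assigned reads a library, and the 83 genes took 0.271% to 0.434% of them. Tnfrsf1b, the targeted gene, was listed at 0 in 9 of 12 libraries. Its unit values were 0.0275 FPKM in A1, 0.141 FPKM in A4 and 0 in A2, A8, A9 and A10, with at most 22 reads in a library. The highest value lay in a unit labelled cKO, so this gene does not check the genotypes, which are used as labelled. The astrocyte markers were high in every unit, with a summed level of 4739 to 5749 FPKM in Ctrl and 5447 to 6251 FPKM in cKO for 12 genes including Aqp4, Aldoc and Slc1a2. Of 5 red cell markers Hba-a1, Hba-a2 and Hbb-bt were at 0, while Alas2, which begins haem synthesis, was at 0.408, 1.49 and 0.102 FPKM in A1, A2 and A8 and at 2.14, 1.89 and 1.80 FPKM in A4, A9 and A10. Neuronal markers summed to 3.06 to 8.89 FPKM and microglial markers to 14.0 to 34.5 FPKM over all units.

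The oligopyrimidine tract is the sequence feature these genes are best known for, so the bases around the annotated start are shown for 8 genes described further on for their level, genotype difference or library difference. The windows run from 10 bases before the RefSeq start to 20 bases from it, 5′ to 3′, with the longest pyrimidine run that begins with C in capitals:
Rplp2: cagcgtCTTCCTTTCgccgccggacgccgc
Rps6: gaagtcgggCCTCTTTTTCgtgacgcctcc
Rpl38: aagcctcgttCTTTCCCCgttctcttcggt
Rps27: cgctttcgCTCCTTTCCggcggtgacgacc
Rpl39: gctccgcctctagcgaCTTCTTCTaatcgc
Rps23: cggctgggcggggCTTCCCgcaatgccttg
Rpl5: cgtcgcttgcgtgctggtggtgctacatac
Rplp0: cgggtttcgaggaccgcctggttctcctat
These stretches lie, on RefSeq's annotation of GRCm38.p6, at Rplp2 chr7:141447641-141447670 (+), Rps6 chr4:86857348-86857377 (-), Rpl38 chr11:114668570-114668599 (+), Rps27 chr3:90213629-90213658 (-), Rpl39 chrX:37085203-37085232 (-), Rps23 chr13:90923112-90923141 (+), Rpl5 chr5:107900518-107900547 (+) and Rplp0 chr5:115559457-115559486 (+). Rpl5 and Rplp0 had no such run of at least 5 bases beginning within 10 bases of the annotated start. The stretch of C and T near the end of the Rplp0 window begins further away and is left in lower case. Of the 83 genes, 63 had a promoter in the RefSeq table, and for genes with several starts the one with the longest run is shown and a motif at any start was counted. A run of at least 5 bases, a C followed by C or T only, beginning within 10 bases of the start on the gene's own strand, was present for 39 of these 63 (61.9%) and for 37.4% of the 10040 tested genes with a promoter. The 63 include Rpl3l, Rpl10l and Rpl39l, which were not tested and each had a run. Among the tested members with a promoter 36 had a run and 24 had none. The motifs CCGGAAG, AAGATGGC and TATAAA were sought on both strands of the 300-base promoter, with overlapping matches allowed. CCGGAAG, a core for ETS factors, was present in 26 of 63 (41.3%) against 19.6% of tested genes with a promoter. AAGATGGC, a core for YY1, was present in 6 (9.52%) against 5.39%, and TATAAA in 7 (11.1%) against 9.004%. A match is a description of letters and not of a working site. A missing run likewise describes the letters near the annotated start, and does not show that the messenger lacks a tract.

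The ribosomal protein genes stood in the upper part of the expressed genes. FPKM counts reads per kilobase of the table's exonic length and per 1000000 assigned reads. Genes with a mean of at least 1 FPKM over the 12 libraries were tested, which kept 80 of the 83 ribosomal protein genes among 17586 genes. Their median level was 20.8 FPKM against 5.70 FPKM for the 11816 tested protein-coding genes, and 78 of 80 lay above that protein-coding median. The median member stood at percentile 88.8. Large subunit genes had a median of 20.2 FPKM and small subunit genes of 21.4 FPKM.

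Rplp1, which with Rplp2 and Rplp0 builds the stalk that recruits elongation factors, had the highest level. It was at 136 FPKM in A1, 185 in A2, 83.8 in A8, 120 in A4, 131 in A9 and 135 in A10. Its stalk partners were much lower by this scale, with means of 40.5 FPKM for Rplp0 and 14.4 FPKM for Rplp2 over the 6 units. Rps15, a protein of the small subunit head, followed at a mean of 91.2 FPKM, and Rpl4, which lines the exit tunnel, at 78.1 FPKM. Neighbours in this order overlapped: Rps15 ranged over 71.0 to 118 FPKM and Rpl4 over 67.0 to 98.6 FPKM. Rps3a1 (58.1 FPKM) and Rpl36 (56.7 FPKM) completed the 5 highest.

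At the low end Rps15a had a mean of 4.61 FPKM and Rpl35a of 4.68 FPKM. Rpl41, which encodes the smallest protein of the ribosome, had 35.3 FPKM, and Rps27a, made as a fusion to ubiquitin, 28.6 FPKM. Rps6, the substrate of the S6 kinases, was at 30.7 FPKM and Rps14, a small subunit protein, at 12.1 FPKM. Rpl5 and Rpl11, which bind Mdm2 together with the 5S ribosomal RNA, were at 19.9 and 11.8 FPKM.

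These levels depend on the length used. The exonic length in the table was a median 2.01 times the length of the principal coding transcript in GENCODE M21, with ratios from 1 to 6.79. Per kilobase of the principal transcript, a choice made after the lengths had been seen, the median was 42.0 FPKM and the 5 highest genes were Rplp1, Rps15, Rpl4, Rpl7 and Rpl23a. Rps3a1 kept its value of 58.1 FPKM because its lengths agree, while Rps19, a gene of Diamond-Blackfan anaemia, went from 6.03 to 36.5 FPKM and Rps24 from 16.5 to 64.0 FPKM. Comparisons of a gene with itself across units are untouched by this.

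**Figure D1:**
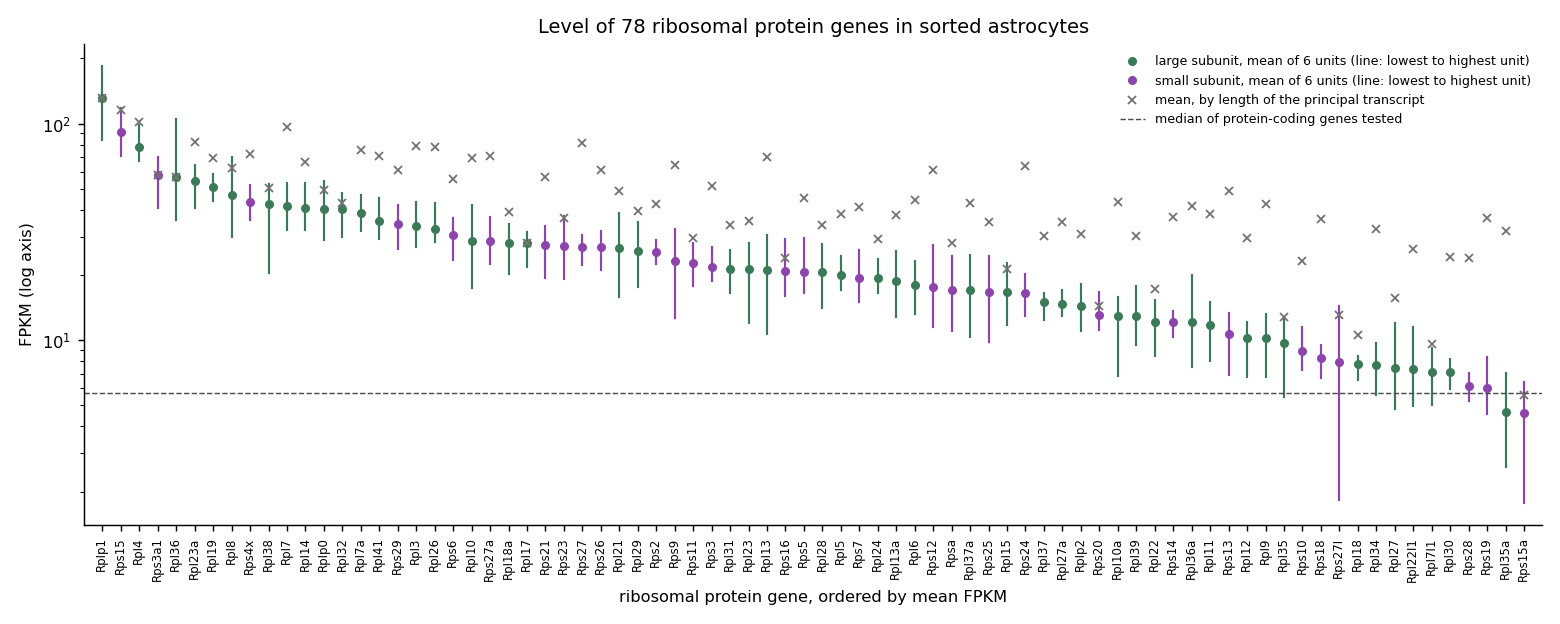
Mean FPKM (log axis) of 78 tested ribosomal protein genes over 6 units, ordered by level, with a line from the lowest to the highest unit. Crosses give the mean per length of the principal transcript, and the dashed line is the 5.70 FPKM median of tested protein-coding genes. Rplp1 is highest and Rps15a lowest by the table's length, and most crosses sit above their dots.

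Close copies of ribosomal protein genes were mostly far below their partners. Rpl3l, the copy of Rpl3 known from muscle, reached 21 reads at most and had a mean of 0.225 FPKM against 33.5 FPKM for Rpl3. Rpl10l and Rpl39l, known from testis, were listed at 0 in all 12 libraries, while Rpl10 and Rpl39 had 28.8 and 12.9 FPKM. These 3 copies are the members that were not tested. Rpl7l1 had 7.16 FPKM against 41.5 FPKM for Rpl7.

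By the table's length Rpl22l1, Rps27l and Rpl36al came nearer to their partners, whose means were 1.65, 3.38 and 3.33 times those of the copies. Rpl22l1 was at 9.72 FPKM in A1, 11.5 in A2, 4.97 in A8, 6.49 in A4, 5.90 in A9 and 5.44 in A10, and Rpl22 at 15.4, 14.1, 8.49, 11.8, 11.8 and 11.3 FPKM in the same units. Both were lowest in A8 and higher in A1 and A2 than in any unit labelled cKO. Rpl22l1 thus held 32.5% to 45.0% of the pair's summed FPKM by the table's length, and the levels of the pair correlated at r = 0.86 over 6 units. The share depends on the length used. Per kilobase of the principal transcript Rpl22l1 had a mean of 26.4 FPKM and Rpl22 of 17.2 FPKM, so the copy was above its partner. Rps27l had 13.0 FPKM by that length, against 81.2 FPKM for Rps27.

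Rps27l, a copy of Rps27 known as a p53 target, was the most variable of the 80 genes. It was at 11.7 FPKM in A1, 1.82 in A2, 5.91 in A8, 5.68 in A4, 8.33 in A9 and 14.3 in A10. A2 was the lowest unit and A10 and A1 the highest, so each genotype held a high unit, and the fewest reads behind a value were 28, in the S1 library of A2. Rps27, the small subunit protein it copies, ran only from 22.3 to 30.4 FPKM. Rpl36a, at a mean of 12.1 FPKM, had its copy Rpl36al at 3.63 FPKM, and Rps4x, at 43.3 FPKM, had Rps4l at 2.49 FPKM. Rps4l is annotated in the table as a transcribed processed pseudogene and is no member.

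Processed pseudogenes nearly identical to these genes can share their reads. The table names 317 such rows, 62 members have at least 1, and 63 of the rows reached a mean of 1 FPKM. Reads assigned to them equalled 3.56% to 4.32% of the members' reads in a unit. Rpl31-ps8 (24.6 FPKM) and Rpl28-ps1 (22.1 FPKM) led, so Rpl31 at 21.4 FPKM and Rpl28 at 20.5 FPKM are uncertain, as are other members with expressed pseudogenes. Values of members came to whole reads, within 0.01 read, for 70.4% to 85.2% of them a library, against 82.8% to 86.3% of all rows.

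The units differed in the ribosomal protein genes as a group, and the largest difference lay inside the control genotype. Summed over the 83 genes the level was 2327 FPKM in A1, 2504 in A2 and 1630 in A8, and 1954 in A4, 1898 in A9 and 1908 in A10. A1 and A2 lay above every unit labelled cKO and A8 below every one. The Ctrl units averaged 2154 ± 462 FPKM and the cKO units 1920 ± 30.1 FPKM (SD over 3 units), a difference smaller than the spread of the controls. With the upper quartile set equal in all libraries both genotypes averaged 2048 FPKM, with 2323, 2376 and 1445 FPKM in A1, A2 and A8 and 2192, 1971 and 1982 FPKM in A4, A9 and A10. As a share of all FPKM the genes took 0.659%, 0.70% and 0.415% in A1, A2 and A8 and 0.486% to 0.511% in the cKO units.

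Gene by gene, A8 was the lowest unit for 43 of the 80 genes and A2 or A1 the highest for 36 and 29. In 68 of 80 (85%) A8 lay below both A1 and A2, which held for 42.9% of all genes tested. In 24 genes all cKO units lay between A8 and the other controls, an order seen in 6.02% of all genes tested. Measured from each gene's mean over the units, the median deviation on the log2(FPKM + 1) scale was 0.22 in A1, 0.26 in A2 and -0.25 in A8, and -0.02 in A4, -0.09 in A9 and -0.08 in A10. Over all genes tested these medians stayed between -0.04 and 0.04. For 78 mitochondrial ribosomal protein genes, a separate family encoding the ribosome inside mitochondria, they ran from -0.04 in A8 to 0.12 in A4. The SD among Ctrl units had a median of 0.33 over the 80 genes and that among cKO units of 0.17. Over all genes tested these medians were 0.33 and 0.23. The SD was larger in Ctrl for 69 of 80 genes (66.9% of all genes tested).

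**Figure D2:**
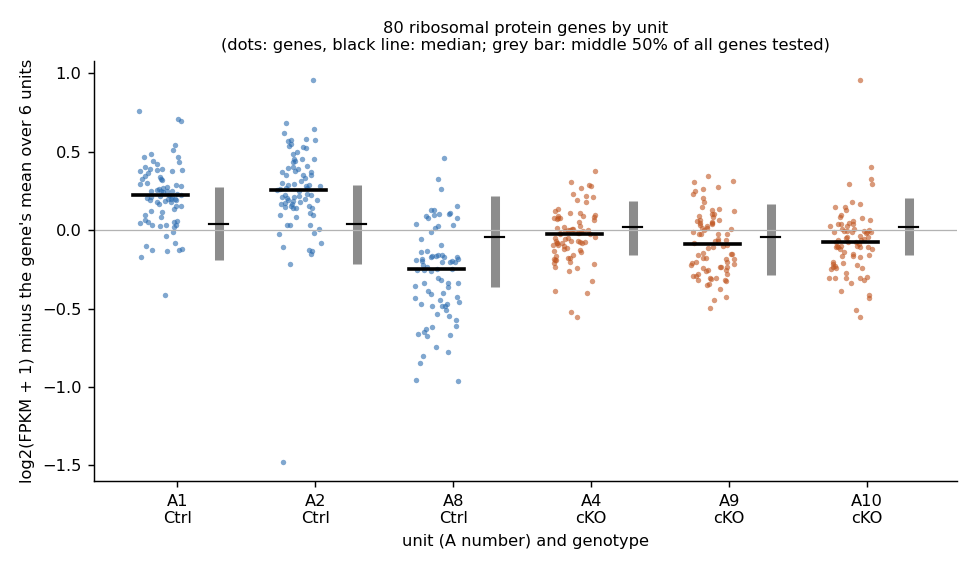
Deviation of each of the 80 tested ribosomal protein genes from its own mean over 6 units, log2(FPKM + 1), by unit (dots, blue for Ctrl and orange for cKO; black line, median). Grey bars span the middle 50% of all genes tested with their median. The members' medians are 0.22 and 0.26 in A1 and A2 and -0.25 in A8, with the cKO units in between.

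Marker sums of other cells also differed among the units. The 11 oligodendrocyte markers, such as Mbp and Cnp, summed to 2152 FPKM in A1, 2339 in A2 and 1083 in A8, and to 310, 442 and 744 FPKM in A4, A9 and A10. All 11 had fitted differences below 0 in cKO and 10 had no overlap between the genotypes (7.22% of all genes tested had all cKO units below all Ctrl units), but none passed the adjusted threshold. In bulk samples fewer cells of a type and less RNA per cell cannot be told apart. Sox10, a defining factor of that lineage, was at 35.2, 32.6 and 12.6 FPKM in A1, A2 and A8 and at 3.69 to 11.01 FPKM in cKO. The 16 immediate-early and dissociation genes, such as Egr2 and Ier3, summed to 1162 and 1304 FPKM in A1 and A2, to 351 FPKM in A8, and to 624, 260 and 590 FPKM in A4, A9 and A10. The 5 ependymal markers summed to 229 and 202 FPKM in A1 and A2 and 59.7 FPKM in A8, against 50.8 to 149 FPKM in cKO. Other lists had other orders. The 5 endothelial markers summed to 41.6, 21.5 and 4.49 FPKM in A1, A2 and A8 and to 29.0, 3.85 and 4.81 FPKM in A4, A9 and A10. The 7 microglial markers were highest in A4 (34.5 FPKM) and lowest in A2 (14.0 FPKM), and the 5 mural markers highest in A10 (136 FPKM) and lowest in A8 (62.7 FPKM). The astrocyte markers were lowest in A1 (4739 FPKM) and A2 (5224 FPKM) and highest in A9 (6251 FPKM). The part of these lists in the level of the ribosomal protein genes was not tested.

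**Figure D3:**
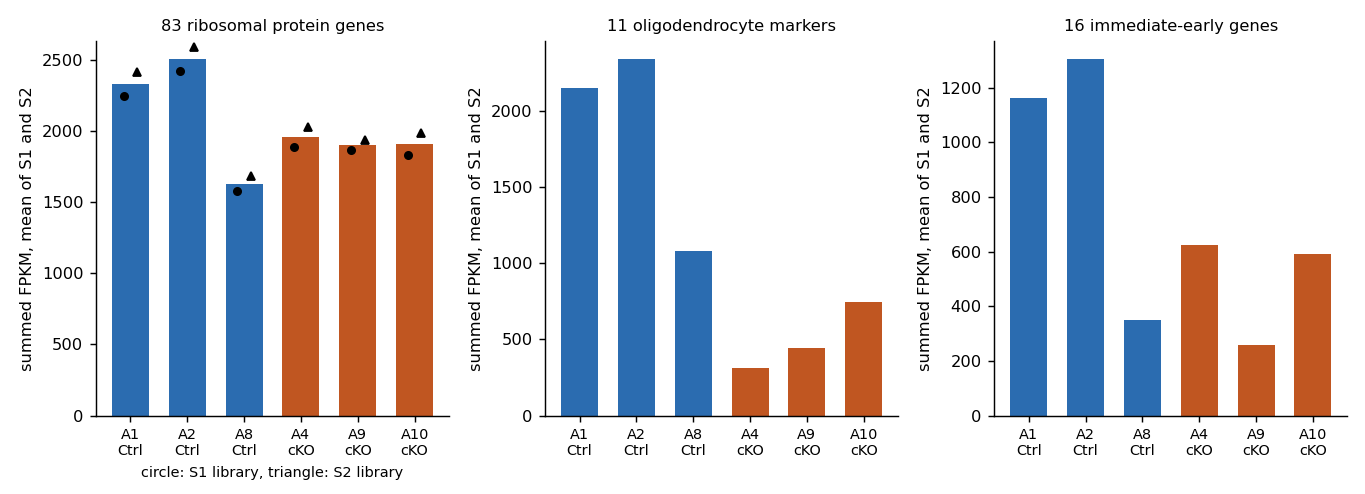
Summed FPKM by unit (bars, mean of S1 and S2; blue for Ctrl, orange for cKO) of the 83 ribosomal protein genes, 11 oligodendrocyte markers and 16 immediate-early genes. In the left panel circles are S1 and triangles S2 libraries. A1 and A2 are highest in all 3 panels, and A8 is the lowest control in each.

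The ribosomal protein genes varied together over the units. The median Pearson correlation between a pair of them, over 3160 pairs and 6 units, was 0.51, and 83.9% of pairs were above 0. All genes tested had a median of 0.010 with 50.7% above 0, and mitochondrial ribosomal protein genes of 0.011. After subtracting each genotype's mean the members' median was 0.60, and without A8 it was 0.50. In the 3 Ctrl units it was 0.84 and in the 3 cKO units 0.02, where each r rests on 3 points. The middle 50% of pairs ran from 0.36 to 0.97 in Ctrl and from -0.69 to 0.74 in cKO. The members' summed level spanned 1630 to 2504 FPKM in Ctrl and only 1898 to 1954 FPKM in cKO. Whether the genotypes differ in co-variation was not tested. The points share libraries and scaling, so these correlations are descriptions. Large and small subunit genes did not stand apart in this: medians within them were 0.50 each.

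Rpsa, a small subunit protein also known as the laminin receptor, followed the mean of the other members most closely (r = 0.98). It was at 22.2 FPKM in A1, 24.4 in A2 and 10.98 in A8, and at 15.5, 13.2 and 16.3 FPKM in A4, A9 and A10. Rpl22l1, Rpl7, Rps4x and Rps28 had r of 0.97 each, and 36 genes were above 0.8. The 6 genes with r below 0 were Rps27, Rps26, Rpl37, Rpl7l1, Rps27l (r = -0.34) and Rpl30 (r = -0.41). Rpl30 was at 7.33, 6.39 and 7.72 FPKM in A1, A2 and A8, and at 5.94, 8.15 and 7.08 FPKM in A4, A9 and A10. The steadiest genes over the units were Rpl18 (6.56 to 8.46 FPKM), Rps2 (22.4 to 29.1 FPKM) and Rps28 (5.26 to 7.08 FPKM). The most variable after Rps27l were Rpl36 (35.9 to 104 FPKM, highest in A2) and Rpl38 (20.4 to 52.8 FPKM, lowest in A8), a large subunit protein known for its part in skeletal patterning.

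No ribosomal protein gene passed the test of cKO against Ctrl. Of 17586 genes 0% passed an adjusted p of 0.05 (limma, Benjamini-Hochberg), and so 0 of the 80; the smallest adjusted p of a member was 0.378. With the threshold of 0.05 put on the unadjusted p instead, 6 members were lower in cKO (4.71% of all genes tested) and 1 higher (2.97%). Of the fitted differences 60 were below 0 and 20 above (75% below, against 50.9% of all genes tested), with a median of -0.14 log2 against -0.01 for all genes. With the upper quartile set equal in all libraries the median of all genes moved to 0.13, and 36 members (45%) were below 0 with a median of 0.03, against 33.5% of all genes below 0. Relative to the median of all genes the members' median was -0.13 in the main scaling and -0.10 in that one. With TPM, 66 members (82.5%) were below 0 with a median of -0.22, against 58.5% of all genes, and 10 had no overlap with all cKO units lower (9.11% of all genes).

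The split depended on single units. Without A8 72 of 80 differences were below 0 with a median of -0.32, and without A2 42 were, with a median of -0.04. The genotypes did not overlap in 8 members lower in cKO (7.22% of all genes tested) and in 1 higher (5.75%). The lower ones included Rpl39, Rps23, Rpl14, Rpl31, Rpl24, Rpl27a and Rpl27, named here after their values were seen. Without A8 the count of such members was 47, beside 19.6% of all genes tested, and with the upper quartile scaling it was 1, beside 3.24%.

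Rpl39, which lines the exit tunnel, had the lowest p among the members. It was at 13.1 FPKM in A1, 17.0 in A2 and 17.7 in A8, and at 9.45 in A4, 10.48 in A9 and 9.92 in A10. A8 was the highest unit here, as in 3 of the 80 members in all, and all cKO units lay below all Ctrl units. The fitted difference was -0.62 log2 (SE 0.15), lower in 3 of 3 cKO units, and did not pass the adjusted threshold.

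Rps23, a protein of the decoding centre, was at 37.3, 31.0 and 28.1 FPKM in A1, A2 and A8, and at 25.6, 19.1 and 21.3 FPKM in A4, A9 and A10. The genotypes did not overlap, and the fitted difference was -0.53 (SE 0.16, limma adjusted p = 0.476). Rpl36a had the largest fitted difference downwards, -0.65 (SE 0.25, limma adjusted p = 0.618), with 19.98, 15.5 and 9.97 FPKM in A1, A2 and A8 and 7.54, 10.2 and 9.32 FPKM in A4, A9 and A10. Its A8 value lay among the cKO values. Rpl36a and Rpl39 are 2 of the 4 members on the X chromosome; the others, Rps4x and Rpl10, had -0.14 and -0.10.

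Rpl27 (-0.50) and Rps12 (-0.47) completed the 5 largest differences downwards. Rpl27, a large subunit protein, was at 11.97 FPKM in A1 and 7.10 and 7.81 in A2 and A8, against 6.75, 6.39 and 4.79 FPKM in A4, A9 and A10. A1 stood apart, and A2 and A8 were close to A4. Its S1 and S2 libraries differed widely, at 3.99 and 11.6 FPKM in A8 and 3.90 and 9.59 FPKM in A4. Only the unit averages were without overlap. In S1 alone A8 (3.99 FPKM) lay below A9 (5.15 FPKM), and in S2 alone A2 (8.02 FPKM) lay below A4 (9.59 FPKM). Rps12, a small subunit protein, ranged over 14.4 to 27.4 FPKM in Ctrl and 11.6 to 19.5 FPKM in cKO, which overlap.

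Among the differences upwards Rps27 was the member without overlap, at 24.9, 25.1 and 22.3 FPKM in A1, A2 and A8 and 30.4, 28.0 and 30.4 FPKM in A4, A9 and A10. Its fitted difference was 0.29 (SE 0.11, limma adjusted p = 0.618). Its sign was the same in all 19 alternatives, and with it 20 of the 38 tested members named by rule kept theirs. Alternatives in the filter, the variance model, coding rows only and the 12-library fits left the fitted difference itself unchanged. Its sign could not change in those, and some of these members were named for their large differences. The 5 largest were Rps27l at 0.65 (SE 0.56), Rpl35 at 0.35, Rps15a at 0.34, Rps13 at 0.29 and Rpl38 at 0.29. In Rpl35, near the tunnel exit, values were 12.3, 7.88 and 5.47 FPKM in A1, A2 and A8 and 12.4, 7.66 and 12.6 FPKM in A4, A9 and A10, so the genotypes overlapped. Rps15a, Rps13 and Rpl38 had their lowest value in A8.

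By role the picture was similar. The stalk genes Rplp0, Rplp1 and Rplp2 had fitted differences of -0.33, 0.0036 and -0.19. Rpl5 and Rpl11, the Mdm2-binding pair, had -0.18 and -0.10, and Rps6 and Rps27a -0.09 and -0.34. Of 10 genes mutated in ribosomopathies 9 were below 0, with a median of -0.22. Large subunit genes were below 0 in 36 of 48 and small subunit genes in 24 of 32, with medians of -0.16 and -0.13. The upper quartile scaling shifted these to 0.012 and 0.03 together with all genes, and relative to the median of all genes they were -0.15 and -0.13 in the main scaling and -0.12 and -0.10 in that one. Members were also grouped by a pyrimidine run near the annotated start, which does not separate messengers with a tract from those without. Genes with such a run had a median of -0.20 (26 of 36 below 0) and those without one of -0.11 (19 of 24). Relative to the median of all genes these were -0.19 and -0.10, and -0.17 and -0.09 under the upper quartile scaling, and that of the ribosomopathy genes was -0.21 and -0.18. Under the upper quartile scaling itself the median without a run was above 0 (0.05). The order of these medians depended on a single unit. Without A8 it was reversed, at -0.31 for genes with a run and -0.34 for those without one.

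**Figure D4:**
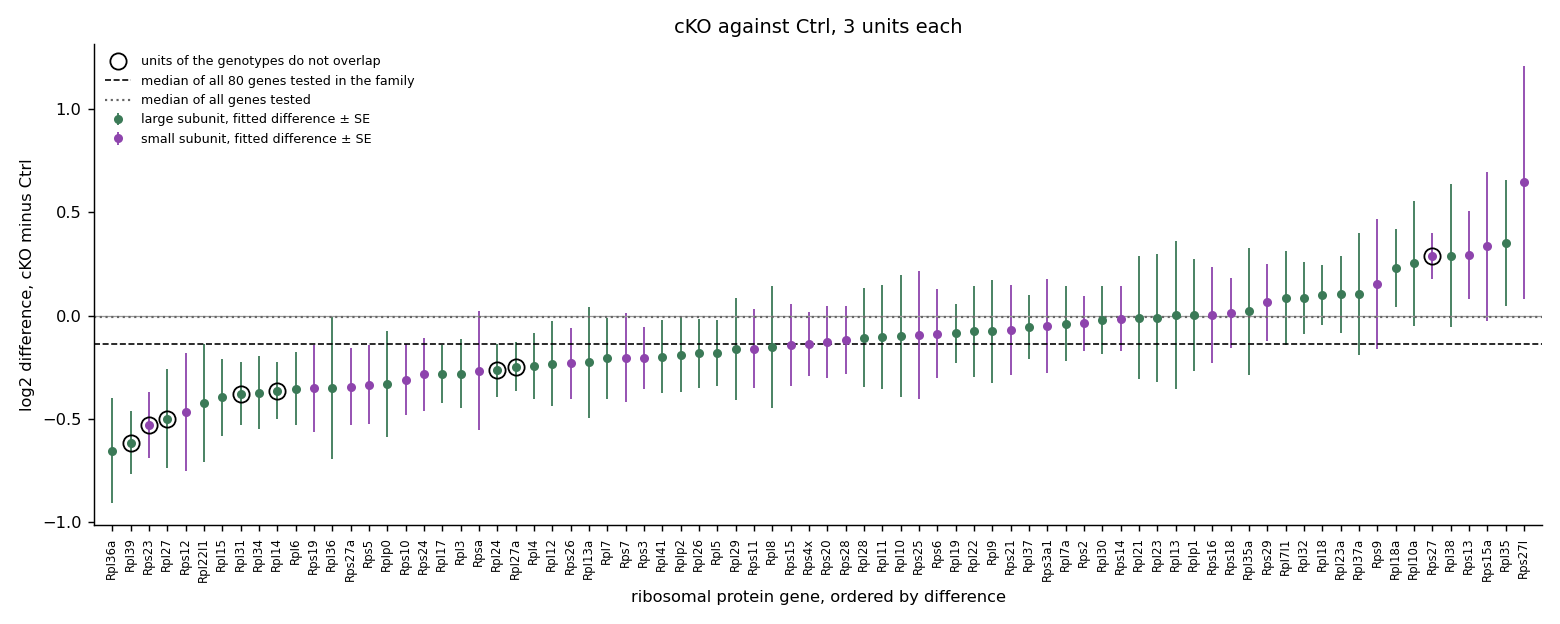
Fitted log2 difference, cKO minus Ctrl, for 78 tested ribosomal protein genes with its SE (green, large subunit; purple, small subunit; 3 units a genotype). Circles mark the genes shown whose units do not overlap, the dashed line the median of -0.14 over the 80 members and the dotted line that of all genes, -0.01. No gene passed the adjusted threshold.

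Genes that work with the ribosome were counted in the same way, and none passed the adjusted threshold. Of 4 genes for ribosomal proteins outside the rule 3 were below 0, with a median of -0.34. Fau and Rack1 had fitted differences of -0.51 and -0.37, and Rpl36al had 0.10. Fau, made as a fusion to a ubiquitin-like protein, was at 41.8, 49.4 and 38.1 FPKM in A1, A2 and A8 and at 35.9, 26.9 and 26.9 FPKM in A4, A9 and A10, without overlap. Of 22 other messengers known for an oligopyrimidine tract 17 were below 0 (median -0.23), and of 9 elongation factors 7 were (median -0.16). Eef1a1, which brings aminoacyl-tRNA to the ribosome, was at 358 and 393 FPKM in A1 and A2 but at 215 FPKM in A8, against 190 to 236 FPKM in cKO. Initiation factors were below 0 in 27 of 39 (median -0.04), biogenesis factors in 33 of 50 (-0.05), RNA polymerase I genes in 11 of 19 (-0.10) and genes of mTORC1 and its control of these messengers in 9 of 18 (-0.01). These lists share some genes. The upper quartile scaling, which shifted all genes upwards, brought the medians of initiation factors (0.13), biogenesis factors (0.08), RNA polymerase I genes (0.05) and mTORC1 genes (0.15) above 0. Relative to the median of all genes the shifts were smaller. Biogenesis factors went from -0.048 to -0.052 and RNA polymerase I genes from -0.091 to -0.088. Initiation factors went from -0.029 to -0.0081, and mTORC1 genes changed sign, from -0.0036 to 0.013. The oligopyrimidine messengers went from -0.23 to -0.20.

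Libraries of the same unit differed slightly in the ribosomal protein genes. S2 libraries held 28096485 to 35323322 reads and S1 libraries 17311872 to 22025823, and the summed level was higher in S2 than in S1 in 6 of 6 units, by 3.66% to 8.56%. In a fit that blocked on the A number, 11 of 80 members were higher in S2 (1.12% of all genes tested) and 0 lower (0.262%) at a limma adjusted p under 0.05. They included Rpl5, Rpl10a, Rplp1, Rpl23a, Rpl15, Rps3a1, Rps7, Rpl10, Rpl26 and Rps6. Of the 80 fitted differences 63 were above 0, with a median of 0.08 against 0.02 for all genes, and 22 members (27.5%) were higher in S2 in every unit against 5.14% of all genes.

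Rpl5 had the smallest adjusted p, with a difference of 0.28 (SE 0.02, limma adjusted p = 0.00146), higher in 6 of 6 units. Rpl10a, a protein of the large subunit's L1 stalk, had 0.43 (SE 0.04, limma adjusted p = 0.00254), higher in 6 of 6 units. Rpl23a, at the tunnel exit, had 0.31 and Rplp1 0.30 (limma adjusted p = 0.0172 for Rplp1). For comparison, the SD of log2(FPKM + 1) over the 6 units was 0.20 for Rpl5, 0.42 for Rpl10a and 0.24 for Rpl23a. The library differences of these genes were at or above this SD, as were those of Rps7 and Rps6. That of Rplp1 was below its SD of 0.37, and those of Rpl15, Rps3a1, Rpl10 and Rpl26 were also below theirs. The count of 11 was 2 without A1 and 5 or 6 without any other unit, beside 0.87% to 1.03% of all genes. It was 6 with the upper quartile scaling, 5 with TPM and 0 with no block for the A number, where 1.27%, 1.38% and 0.125% of all genes were called in either direction. It was 15 with a filter at 5 FPKM (3.91% of all genes) and 16 among protein-coding rows only (1.18%). Whether depth, which differed between S1 and S2 in every unit, had a part in this was not tested.

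**Figure D5:**
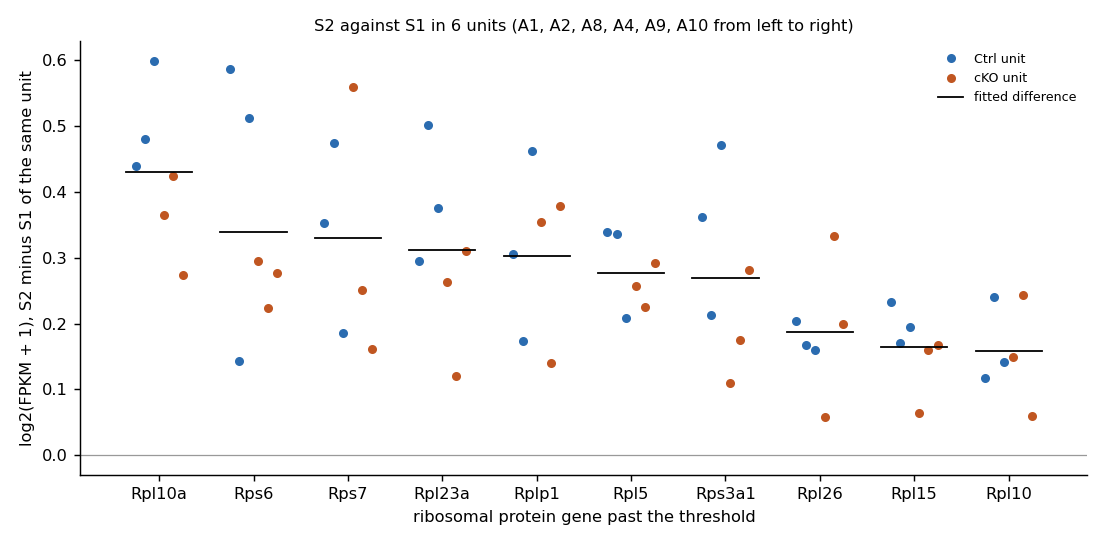
Difference in log2(FPKM + 1) between the S2 and S1 libraries of the same unit for 10 of the 11 ribosomal protein genes past the threshold (dots, blue for Ctrl and orange for cKO units; black line, fitted difference). All dots lie above 0.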

How the data were processed

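Libraries of ACSA-2-sorted hippocampal cells were sequenced as 125-base paired reads, per the labels. The authors deposited FPKM per gene. The submitters' processing notes name FastQC, STAR, featureCounts, DESeq2, mm10 and GRCm38, without versions, and whether counting used strand is not given in the sources used here. Only 1 of the 83 genes has the start and end that GENCODE M21 gives on GRCm38, so the build of the table is not settled and its coordinates are not printed. Depth was recovered from the steps of low FPKM values. Multi-mapping rules of the counting are not given in the sources used here, which bears on genes with pseudogenes.

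FPKM was taken as log2(FPKM + 1), S1 and S2 were averaged per A number to 6 units, and limma 3.58.1 in R 4.3.3 (lmFit, eBayes with trend, two-sided, Benjamini-Hochberg over all genes tested) compared cKO with Ctrl in genes with a mean of at least 1 FPKM. S2 was compared with S1 in 12 libraries with the A number, which pairs them in the titles, as a block. Folds are on the log2(FPKM + 1) scale, which understates changes of low genes. Levels, correlations and counts were computed with pandas 2.3.3 and numpy 2.4.6 in Python 3.11.15, and both fits were tested on simulated data. Promoter windows came from RefSeq on GRCm38.p6.

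The genes named were 12 members of known roles, the copies and their partners, the 5 highest and 5 lowest levels, the 5 largest differences each way, the 3 most and 3 least variable members, the 3 smallest p each way in S2 against S1, 2 genes of each other list and the 5 genes most like the members. The members and lists were chosen with earlier results of these data known. Alternatives covered the pseudocount (0.1), the filter (none, 5 FPKM), scaling (upper quartile, TPM), S1 or S2 alone, each unit left out, averaging, the variance model, coding rows and the replicate block. Level by principal transcript length was added after the lengths were seen. Some genes are not reported here by name, but all enter the counts and medians.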

Additional observations from a re-analysis of the deposited data

How the results depend on the processing

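No member passed the threshold in cKO against Ctrl under any of the 19 alternatives, including the 12-library fits in which the A number was random. With the replicate block (S1 or S2 as a block) the count of members was 0 too, and the block changed no call among the members. The members' median difference, -0.14, was 0.031 with upper quartile scaling, where the median of all genes was 0.13, -0.22 with TPM, and -0.32 to -0.04 leaving out a unit. The count of members with all cKO units lower, 8, was 1 with upper quartile scaling (3.24% of all genes), 10 with TPM (9.11%), 3 over the 12 libraries with the random effect (4.35%), also 3 with the replicate block, and 9 to 47 leaving out a unit (9.91% to 19.6%), where fewer units have to be apart. Its lowest value came without A2 and its highest without A8. It was 13 without A1, 13 without A4 and 14 without A9. The 12-library counts ask 6 libraries a genotype to be apart in place of 3 units.

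The 11 members higher in S2 were 15 with a filter at 5 FPKM, 16 in protein-coding rows, 3 with no filter, 6 with upper quartile scaling, 5 with TPM, 2 without trend in eBayes, 0 with no block for the A number and 2 to 6 leaving out a unit (2 without A1, 5 without A2, A4, A9 or A10, 6 without A8). All genes called made up 0.125% with no block and 0.46% (no filter) to 3.91% (5 FPKM) in the other alternatives. The cause of these shifts was not tested. The cKO mean of the summed level, 1920 FPKM, was 2048 with upper quartile scaling, as was the Ctrl mean, so that the ratio of cKO to Ctrl went from 0.892 to 1.00007, and 1859 in S1 and 1981 in S2 libraries. The median pairwise correlation, 0.51, was 0.61 with upper quartile scaling and 0.64 with TPM. With a random effect for the A number, 112 of 17586 genes were called, and 80 with the replicate block, but 0 members. These fits enter S1 and S2 of an A number as separate libraries with a shared correlation. The fit on 6 units called 0 of all genes.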

Other observations

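Some genes outside the members followed the members' order of units. Over 11655 tested protein-coding genes, 121 correlated above 0.95 over 6 units with the mean of the standardised members. The 5 highest were Slc39a4, a zinc transporter (r = 0.998), Coq10a (r = 0.996), Gspt2, a translation termination factor (r = 0.99), Gpr17, a receptor of oligodendrocyte precursors (r = 0.99), and Thap12 (r = 0.99). Slc39a4 was at 4.45, 5.18 and 0 FPKM in A1, A2 and A8 and at 0.980, 0.954 and 0.858 FPKM in A4, A9 and A10. Gpr17 was at 2.16, 2.54 and 0.0135 FPKM and at 0.834, 0.464 and 0.353 FPKM in the same units. Both reached the mean of 1 FPKM needed for testing only through A1 and A2. Gspt2 was at 3.09, 3.72 and 0.982 FPKM in A1, A2 and A8 and at 2.003, 1.79 and 1.64 FPKM in A4, A9 and A10. Thap12 was at 22.5, 21.6 and 13.7 FPKM in A1, A2 and A8 and at 17.1, 16.2 and 16.6 FPKM in A4, A9 and A10. With 6 points and this many genes such values are descriptions of likeness only.

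Of the mitochondrial ribosomal protein genes 49 of 78 had a fitted difference above 0 in cKO, with a median of 0.09, which was 0.24 with upper quartile scaling and 0.04 with TPM. Set against the median of all genes it was 0.098, 0.103 and 0.114 in the main, upper quartile and TPM scalings. Among genes of the mitochondrial ribosome the genotypes did not overlap in 4 higher in cKO (5.75% of all genes tested) and 3 lower (7.22%). Mrpl32, a large subunit protein of that ribosome, was at 2.09, 1.67 and 1.66 FPKM in A1, A2 and A8 and at 4.28, 3.66 and 2.98 FPKM in A4, A9 and A10, without overlap (difference 0.72, SE 0.21, limma adjusted p = 0.457). Of 11 tested genes of p53 surveillance 6 were below 0 and 5 above. Bax, which promotes cell death, was at 4.05, 4.82 and 4.36 FPKM in A1, A2 and A8 and at 8.53, 6.004 and 5.49 FPKM in A4, A9 and A10, and Ccng1 at 20.3, 23.6 and 21.7 FPKM against 17.3, 16.2 and 18.4 FPKM; neither passed the adjusted threshold. Of 14 import chaperones of ribosomal proteins 8 were below 0, with a median of -0.04.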
